A study of Homo sapiens with 12 samples.

Results

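The RNA of 8 genes of cholesterol synthesis was described in Huh7 cells, a human hepatoma line, before and after doxycycline switched on a construct for A1CF, the RNA-binding partner of the apolipoprotein B mRNA editing enzyme. The genes were 7 enzymes of the pathway (HMGCS1, IDI1, FDFT1, CYP51A1, MSMO1, SC5D and DHCR7) and INSIG1, a membrane protein that controls them. They were taken by symbol from 2 deposited tables of genes that the authors had marked as changed with doxycycline, and they make up 8 of 1939 distinct gene entries in those tables. Of the 8, 7 were in the table of the wild-type (WT) clone, 3 were in the table of the G398S clone, and 2 were in both. The 4 groups of 3 libraries were the WT clone without doxycycline, the WT clone with doxycycline, the G398S clone without doxycycline and the G398S clone with doxycycline. Each A1CF form was carried by 1 inducible Huh7 clone, so form and clone cannot be told apart, and no group received doxycycline without a construct, so the drug and the induced protein cannot be told apart either. The title of the study sets the WT form against the mutant form in the control of lipid metabolism.

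Cholesterol is built in the endoplasmic reticulum and cytosol from acetyl-CoA, first along the mevalonate pathway to farnesyl diphosphate, then through squalene to lanosterol, and then by demethylation, desaturation and reduction to cholesterol. Liver cells run this pathway at a high rate. Its genes are switched on as a group by SREBP transcription factors, which stay in the endoplasmic reticulum, bound to the escort protein SCAP and to INSIG proteins, while sterol is plentiful, and move to the Golgi for cleavage when sterol runs low. INSIG1 is itself a target of these factors, so its RNA follows the activity of the system that its protein restrains.

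All 7 members in the WT table rose with doxycycline. The 6 enzymes rose by a like amount, 1.42-fold to 1.69-fold, and INSIG1 rose 2.12-fold. The G398S table held 3 enzymes, all higher with doxycycline, and their folds were smaller, from 1.27-fold to 1.41-fold. The smallest log2 fold change among all genes that rose was 0.49 in the WT table and 0.29 in the G398S table. HMGCS1 and SC5D, at 0.38 and 0.34 in the G398S clone, lay below the smallest WT value, so the 2 ranges are not like for like. MSMO1 and HMGCS1 were in both tables and rose in both. Of the 15109 genes that the authors tested in the WT clone, 0.371% were among the analysed genes called higher, and of the 17072 tested in the G398S clone, 5.06% were. The members were chosen by the authors' q-values and the group levels behind them, which put them in these tables, so their counts, levels and folds are a description and support nothing further. FPKM (fragments scaled by transcript length and by library size) were given as 1 pooled value for each group of 3 libraries, so no value has a replicate spread, and folds are ratios of these pooled values. Calls are the authors' own, at a q-value (a p-value adjusted for the false discovery rate) under 0.05.

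In the WT clone the mevalonate segment was represented by 2 members. HMGCS1, the HMG-CoA synthase that condenses acetoacetyl-CoA with acetyl-CoA, rose from 100.9 FPKM without doxycycline to 143.7 FPKM with it. The authors' deposited table gave it a log2 fold change of 0.51, with a test statistic of 2.09 and q = 0.0261. This was the smallest fold and the largest q among the 7 members. The largest q in the whole WT table was 0.0483, and genes past the threshold of 0.05 were not analysed here. IDI1, the isomerase that makes dimethylallyl diphosphate, rose from 71.6 to 106 FPKM. The authors' deposited table gave it a log2 fold change of 0.57, with a test statistic of 2.26 and q = 0.00699.

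FDFT1, the squalene synthase that joins 2 farnesyl diphosphate molecules and commits them to sterols, rose from 74.5 to 110.0 FPKM. The authors' deposited table gave it a log2 fold change of 0.56, with a test statistic of 2.26 and q = 0.00699. FDFT1 and IDI1 were thus close to each other in level and in fold, both without and with doxycycline.

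After lanosterol, 3 members were in the WT table. CYP51A1, the cytochrome P450 that removes a methyl group from lanosterol, was the most abundant member and rose from 228 to 328 FPKM. The authors' deposited table gave it a log2 fold change of 0.52, with a test statistic of 2.09 and q = 0.0214. The gain of 99.6 FPKM was the largest of the 56 genes that rose in that table. MSMO1, a methylsterol monooxygenase that acts on the methyl groups left after CYP51A1, rose from 129 to 217 FPKM. It had the largest rise of any enzyme member, and the authors' deposited table lists its log2 fold change as 0.76, with a test statistic of 3.10 and q = 0.00699. Its gain of 88.7 FPKM was the second of the 56. DHCR7, the reductase that turns 7-dehydrocholesterol into cholesterol at the end of the pathway, rose from 111 to 161 FPKM. The authors' deposited table gave it a log2 fold change of 0.53, with a test statistic of 2.19 and q = 0.0127.

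INSIG1, the regulator, was the least abundant member of the WT table and had the largest fold. It rose from 27.2 to 57.8 FPKM, and the authors' deposited table lists a log2 fold change of 1.09, a test statistic of 4.21 and q = 0.00699. IDI1, FDFT1 and MSMO1 had the same q, which goes with the smallest p that the authors deposited, so it does not rank these genes. INSIG1 ranked 8 of the 56 genes that rose by log2 fold change, whereas the 6 enzymes ranked between 27 and 55. By FPKM gained the order was turned around. The 6 enzymes ranked between 1 and 9, and INSIG1 ranked 11 with a gain of 30.6 FPKM. CYP51A1 RNA stood 8.40 times above INSIG1 RNA per length without doxycycline and 5.68 times above it with doxycycline.

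**Figure D1:**
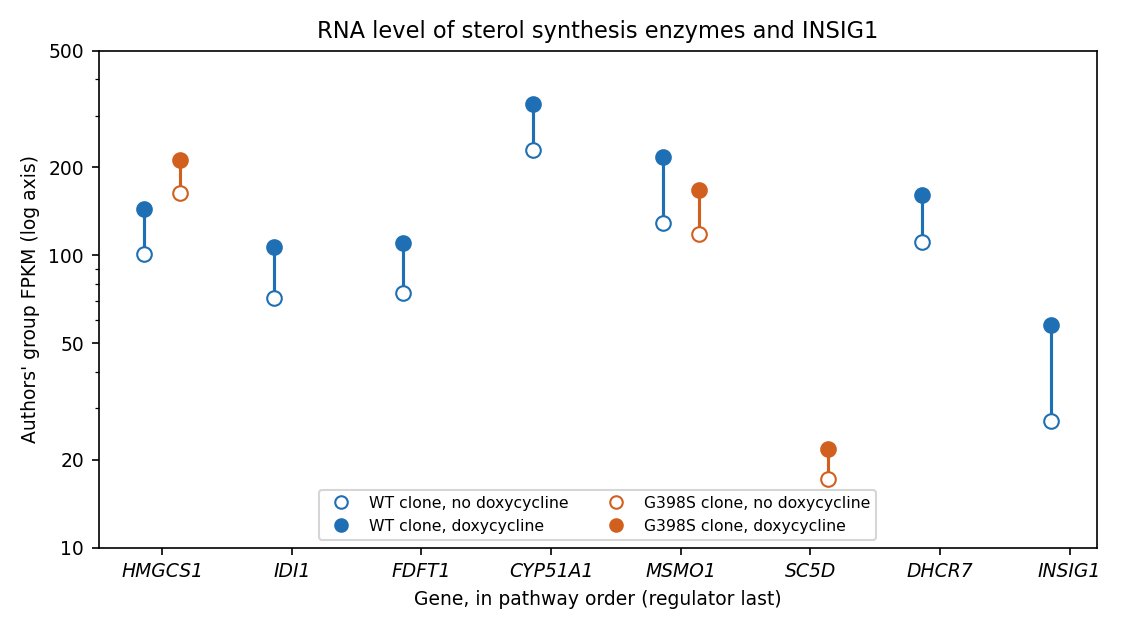
Authors' pooled group FPKM (log axis) of the 8 genes, with INSIG1 last after the enzymes in pathway order; open circles are groups without doxycycline, filled circles groups with it, blue is the WT clone, orange the G398S clone, and a gene with 1 colour is in 1 table. Each filled circle lies above its open circle, and INSIG1, from 27.2 to 57.8 FPKM, has the longest line.

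The order of the 7 genes by level was the same without and with doxycycline in the WT clone: CYP51A1, MSMO1, DHCR7, HMGCS1, FDFT1, IDI1 and INSIG1. With no spread over libraries, whether neighbours in this order differ was not tested. The 7 levels added up to 743 FPKM without and 1125 FPKM with doxycycline, a rise of 1.51-fold. Within that sum the share of CYP51A1 was 30.8% without and 29.2% with doxycycline, and that of HMGCS1 was 13.6% and 12.8%. MSMO1 went from 17.3% to 19.3% and INSIG1 from 3.66% to 5.14%, so these were the 2 genes whose share of the sum grew. The log2 fold changes of the 6 enzymes spanned 0.51 to 0.76, and the standard error that each log2 fold change and its test statistic imply was 0.24 to 0.25. The span of the enzymes' folds was about the size of 1 such error, which is the error of a single fold. INSIG1, at 1.09 with an implied error of 0.26, lay 0.33 above MSMO1. The enzymes' deposited p-values were smaller than such errors give for a normal score. HMGCS1 had an authors' deposited p of 0.00025 beside its test statistic of 2.09. The implied errors are therefore a rough scale, and whether the folds differ was not tested.

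Among the called WT genes the members had high levels and mostly modest folds. They entered the table through the authors' q, which depends on both level and fold. This pairing may follow from that choice, which was not tested. The median log2 fold change of the 7 was 0.56, against 0.75 for all 56 genes that rose. Their lowest level without doxycycline was 27.2 FPKM, against a median of 12.2 FPKM for all 142 genes of the table, fallen genes and the members included. In a window of 50 to 400 FPKM without doxycycline, chosen after the values were seen, 12 genes of the WT table rose, and 6 of them were the enzyme members. The smallest rise among those 12 was a log2 fold change of 0.49, close to that of HMGCS1. In the same window 66 genes of the G398S table rose, 2 of them members, and the smallest rise was 0.29, so smaller changes were called in that clone at the same level.

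**Figure D2:**
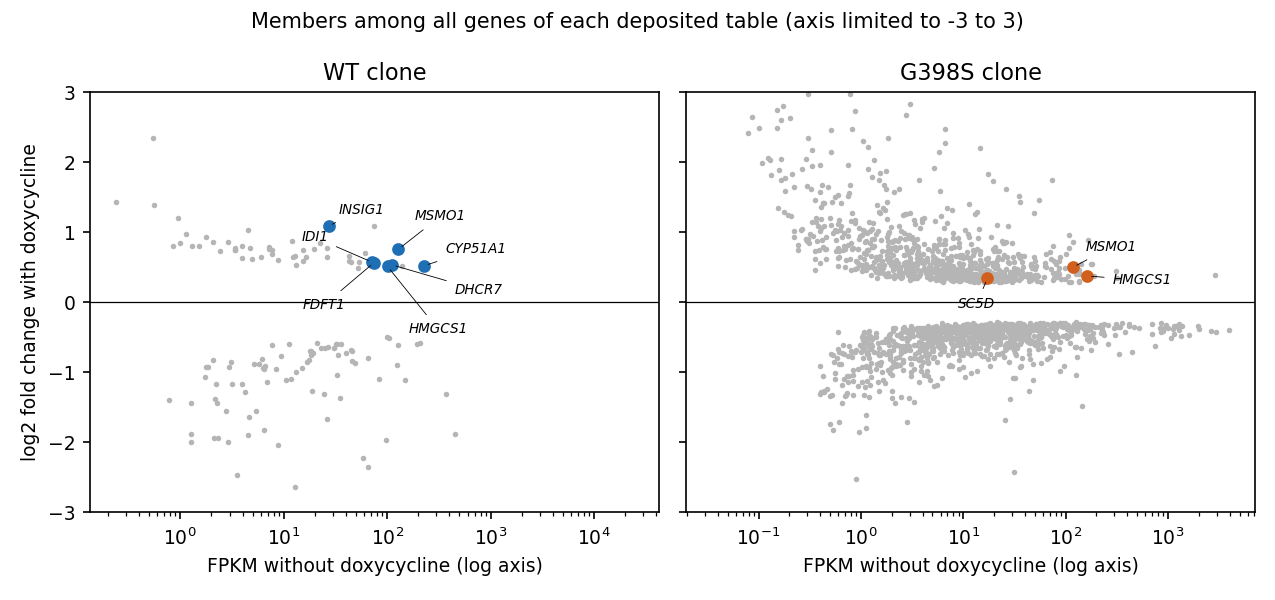
Log2 fold change with doxycycline against FPKM without it (log axis) for the genes of the WT table (left, 135 shown) and the G398S table (right, 1849 shown), grey, with the members coloured and named; 6 and 14 genes lie beyond the axis limit of 3 and 1 WT gene listed at 0 FPKM has no ratio. The 7 WT members lie at 27.2 FPKM and above, and the 3 G398S members at log2 fold changes from 0.34 to 0.50.

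HMGCS1 rose in the G398S clone too, from 163.5 to 212 FPKM. The authors' deposited table gave it a log2 fold change of 0.38, with a test statistic of 1.91 and q = 0.0130. MSMO1 rose from 118 to 167 FPKM. The authors' deposited table lists it with a log2 fold change of 0.50, a test statistic of 2.71 and q = 0.00104. SC5D, the desaturase that makes 7-dehydrocholesterol, the substrate of DHCR7, rose from 17.2 to 21.7 FPKM. The authors' deposited table gave it a log2 fold change of 0.34, with a test statistic of 1.86 and q = 0.0130. SC5D was the least abundant of the 8 genes in any group that holds a value, and MSMO1 RNA stood 6.88 times above it per length without doxycycline and 7.68 times above it with doxycycline.

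HMGCS1 and SC5D shared the largest q of the 3 members in the G398S table, where q reached 0.0497 over all genes. Among 863 genes that rose, MSMO1 ranked 470 by log2 fold change, HMGCS1 ranked 682 and SC5D ranked 774, and the median of the 3 was 0.38 against 0.54 for all 863. By FPKM gained, MSMO1 ranked 30 and HMGCS1 ranked 31, with gains of 48.8 and 48.5 FPKM. INSIG1, IDI1, FDFT1, CYP51A1 and DHCR7 in the G398S clone, and SC5D in the WT clone, were not analysed here, and nothing is said of whether they changed there.

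Side by side, the 2 enzymes in both tables differed in what changed between clones. MSMO1 was at a like level without doxycycline, 129 FPKM in the WT clone and 118 FPKM in the G398S clone, and reached 217 and 167 FPKM with doxycycline. HMGCS1 was 1.62 times higher in the G398S clone before induction, 163.5 against 100.9 FPKM, so that its level without doxycycline there lay above the induced level of 143.7 FPKM in the WT clone. The 2 tables were probably normalised separately, which the sources used here do not state, so levels across clones are descriptive. The log2 fold change was larger in the WT clone by 0.26 for MSMO1 and by 0.13 for HMGCS1. Most other genes that rose in both tables also had the larger log2 fold change in the WT clone, so this is not particular to these enzymes. The implied errors of the 4 single folds were between 0.18 and 0.24, a rough scale as above. Whether the clones differ was not tested, since both folds chose the genes. MSMO1 exceeded HMGCS1 in the WT clone, 1.28 times without doxycycline and 1.51 times with it, but lay below it in the G398S clone, at 0.723 and 0.788 times its level.

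**Figure D3:**
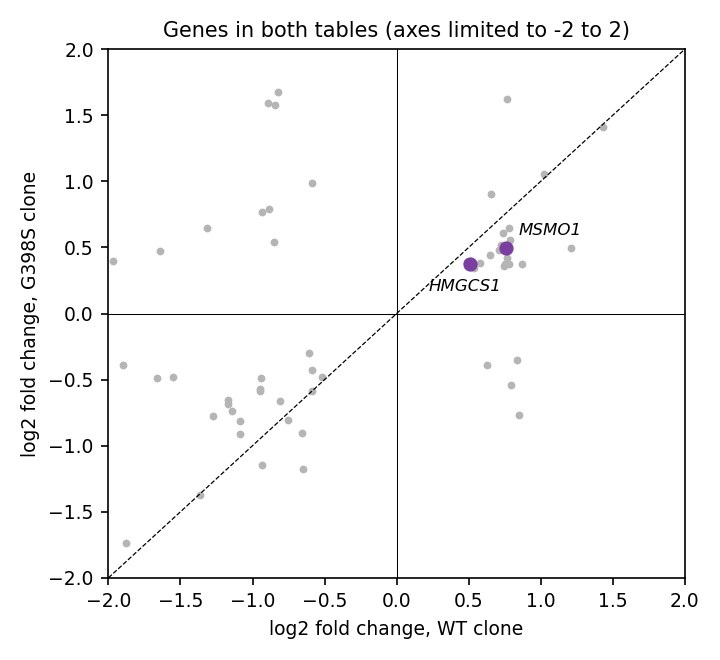
Log2 fold change with doxycycline in the WT clone (horizontal) and in the G398S clone (vertical) for 58 of the 65 genes in both tables, with 7 beyond the axis limit of 2 or without a ratio; purple points are HMGCS1 and MSMO1, and the dashed line marks equal change. Both lie in the upper right, where 22 of the 65 genes rose in both clones, and below the dashed line, as do most of those 22.

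The genes whose pair of folds lay nearest to those of these 2 enzymes were sought among 49 other genes in both tables with at least 1 FPKM in every group. For HMGCS1 they were the long noncoding RNA MALAT1 and IREB2, an iron regulatory protein, at distances of 0.0209 and 0.0375 on the log2 scale. For MSMO1 they were ZNF704 and PEG10, at 0.0361 and 0.0516. ZNF704 was far less abundant, at 2.43 FPKM in the WT clone without doxycycline, whereas PEG10 went from 61.6 to 100.6 FPKM there. Within the WT table alone, among genes of a like level, NEU1, a lysosomal sialidase, lay nearest to CYP51A1, DHCR7 and HMGCS1. It rose from 138 to 198 FPKM, for which the authors' deposited table gave a log2 fold change of 0.52. For CYP51A1 the choice was among 9 genes, and the next nearest had fallen and lay at a distance of 1.11. PTP4A1, a protein phosphatase, lay nearest to IDI1, and the authors' deposited table gave it a log2 fold change of 0.58. INSIG1 and MSMO1 had no such close neighbour among genes of a like level. The nearest of 33 such genes to INSIG1 was ASNS, the asparagine synthetase, which was 0.25 lower on the log2 scale, and the nearest of 15 to MSMO1 lay at a distance of 0.20. At other levels the WT table did hold genes of nearly the same log2 fold change, such as SCD at 1.09 for INSIG1 and A1CF at 0.76 for MSMO1.

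The wider pathway was read from a list of 23 synthesis genes. Of the 23, 7 were in the WT table, 6 of them members, and all 7 were higher, with a median log2 fold change of 0.55. They comprised 3 of 10 genes of the mevalonate segment, 1 of 3 of the squalene segment and 3 of 10 of the segment from lanosterol to cholesterol. The G398S table held 5 of the 23, 3 of them members, and all 5 were higher, with a median of 0.38. None of the 5 belonged to the squalene segment. Among them was GGPS1, which is not a member. GGPS1 makes geranylgeranyl diphosphate, off the route to sterols, but was listed with the mevalonate segment. It rose from 24.2 to 31.6 FPKM, and the authors' deposited table gave it a log2 fold change of 0.38 with q = 0.00349. For comparison, the median log2 fold change over all analysed genes was -0.66 in the WT table and -0.32 in the G398S table. Of all genes tested, 0.371% in the WT clone and 5.06% in the G398S clone were among the analysed genes called higher. These shares also stand beside the counts of higher genes in the lists below.

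Of 13 genes that retain, escort or cleave SREBP, INSIG1 was the 1 present in the WT table, and ERLIN1, an endoplasmic reticulum protein that binds cholesterol, was the 1 present in the G398S table. ERLIN1 rose from 34.1 to 55.0 FPKM, and the authors' deposited table gave it a log2 fold change of 0.69 with q = 0.00104. Of 10 other sterol-responsive genes none was in the WT table and 3 were in the G398S table, 1 higher and 2 lower. POR, the reductase that passes electrons to CYP51A1, rose from 49.7 to 64.7 FPKM, and NPC1, which moves cholesterol out of lysosomes, fell from 4.96 to 3.08 FPKM. No gene of the lists for sterol efflux, for esterification and bile acids, or for other isoprenoids was in the WT table. In the G398S table SOAT1, which esterifies cholesterol, rose from 19.7 to 24.7 FPKM, and LIPA, which hydrolyses cholesterol esters in lysosomes, rose from 11.9 to 15.9 FPKM. HSD3B7 of bile acid synthesis fell from 4.36 to 3.28 FPKM, NR1H2, an oxysterol receptor, fell from 7.82 to 5.86 FPKM, and NUS1 of dolichol synthesis rose from 7.86 to 11.3 FPKM.

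Of 15 fatty acid and glycerolipid synthesis genes known as SREBP1 targets, 2 were in the WT table and 4 in the G398S table, all higher. The shares over all tested genes were 0.371% and 5.06%, as above. ACSS2, which makes acetyl-CoA from acetate, was in both and was 1.83-fold higher with doxycycline in the WT clone and 1.30-fold higher in the G398S clone. In the WT clone the desaturase SCD rose from 74.0 to 158 FPKM, and the authors' deposited table lists the same log2 fold change for it as for INSIG1, 1.09 to 2 decimals. GPAM and LPIN1 of glycerolipid synthesis and the elongase ELOVL5 rose in the G398S clone. The authors' deposited table gave the 3 genes log2 fold changes of 0.61, 0.54 and 0.31.

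A1CF itself was 1.70-fold higher with doxycycline in the WT clone and 3.08-fold higher in the G398S clone. Form, clone and size of induction cannot be told apart, and a relation of the A1CF rise to the members' folds was not tested. Some genes on marker lists of other cell types moved with the groups too, and which cells their RNA came from was not tested. The 3 erythroid genes in the WT table summed to 37205 FPKM without and 337 FPKM with doxycycline, and the 4 in the G398S table to 183 and 4535 FPKM. In the WT clone HBG1 and HBG2 fell and HBA2 rose, and in the G398S clone HBA2, HBB, HBG1 and HBG2 all rose. The sums thus moved in opposite directions in the 2 clones while the members present were higher in both, and the part of globin RNA in the members' values was not tested. LYZ, the 1 of 5 immune cell markers present, fell in both clones, from 83.9 to 39.4 and from 7.29 to 3.87 FPKM. Of 14 hepatocyte and hepatoma markers none was in the WT table and 3 (TF, APOA1 and APOA2) were in the G398S table, all lower with doxycycline but at 130.2 FPKM or more in both groups, so the labelled cell type could be checked by these in the G398S clone alone. Of the 4 endothelial markers none was in either table, and of the 4 mesenchymal markers none was in the WT table while COL1A2 and PDGFRB were under 1 FPKM in the G398S table. KRT19 and SOX9 of the 4 cholangiocyte markers fell in the G398S clone, from 193 to 130 FPKM and from 1.24 to 0.782 FPKM.

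On the genome build hg19 the members lie on 6 chromosomes. In the WT table HMGCS1 spans 43286780 to 43313708 on chromosome 5, IDI1 spans 1064847 to 1095235 on chromosome 10 and FDFT1 spans 11653082 to 11696902 on chromosome 8. CYP51A1 spans 91741463 to 91810039 and INSIG1 155089486 to 155101945 on chromosome 7, MSMO1 166248818 to 166264314 on chromosome 4 and DHCR7 71145457 to 71159477 on chromosome 11. In the G398S table SC5D spans 121163388 to 121184119 on chromosome 11. Each value is for the gene as a whole. Some rows differ in length from the named gene. The CYP51A1 row is 68577 bases long against 22651 bases for the gene in RefSeq, where LRRD1 and CYP51A1-AS1 lie beside it. The IDI1 row is 30389 bases long against 17553 bases, and IDI2 and IDI2-AS1 lie beside that gene. Whether reads of these neighbours enter the 2 values was not tested. The DHCR7 row is shorter than the gene, 14021 bases against 21757 bases. The HMGCS1 row differs in its ends between the tables, being 26929 bases long in the WT table and 26043 bases long in the G398S table.

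Promoter sequence was examined for 7 of the 8 genes, with 12 annotated starts between them, in windows of 300 bases that run from 250 bases before the start to 50 after it (RefSeq, GRCh38.p14). FDFT1 was left out because the promoter set used held no entry for it. The letters searched on both strands were TCACCCCAC, a form of the sterol regulatory element that SREBP binds, its looser form TCACNCCAC and its shorter form CACCCCAC, CCAAT for NF-Y and GGGCGG for SP1, known partners of SREBP at sterol genes, and the E-box CACGTG. None of the 3 forms of the sterol element, of which the longest contains the other 2, was in any of the 12 windows. They are held by 0.43%, 1.13% and 2.79% of all 35114 promoter windows. CCAAT was present for 6 of the 7 genes and in 8 of the 12 windows, 66.7%, against 34.6% of all windows. GGGCGG was present for all 7 genes and in 11 of the 12 windows, 91.7%, against 45.0% of all windows, and CACGTG in 3 windows of INSIG1 and SC5D, against 7.26%. The members' windows held 57.0% to 78.3% G and C, against a median of 58.7% for all windows, and several overlap each other, so the shares are a description. A missing match says only that these letters are not in these windows.

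The windows of 5 genes are shown for these reasons: INSIG1 had the largest fold, HMGCS1 and MSMO1 rose in both clones, SC5D was in the G398S table alone, and CYP51A1, the most abundant, held no CCAAT. Each is written from upstream to downstream on the strand of its gene, in lower case, with capitals for every match of the NF-Y, SP1 and E-box motifs on either strand. The MSMO1 window (chr4:165327419-165327718, plus strand) held CCAAT 4 times, the most of any window, with first bases at -185, -139, -76 and -34 from the start.
MSMO1: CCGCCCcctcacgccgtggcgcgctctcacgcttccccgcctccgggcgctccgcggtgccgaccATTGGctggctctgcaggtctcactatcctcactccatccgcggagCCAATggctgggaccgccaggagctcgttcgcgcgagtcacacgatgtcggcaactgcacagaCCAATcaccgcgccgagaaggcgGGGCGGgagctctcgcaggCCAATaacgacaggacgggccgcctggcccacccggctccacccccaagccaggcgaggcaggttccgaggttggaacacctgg
The HMGCS1 window shown (chr5:43313363-43313662, minus strand, the second of its 2 starts) held CCAAT 2 times, at -155 and -100, and the other HMGCS1 window held none.
HMGCS1: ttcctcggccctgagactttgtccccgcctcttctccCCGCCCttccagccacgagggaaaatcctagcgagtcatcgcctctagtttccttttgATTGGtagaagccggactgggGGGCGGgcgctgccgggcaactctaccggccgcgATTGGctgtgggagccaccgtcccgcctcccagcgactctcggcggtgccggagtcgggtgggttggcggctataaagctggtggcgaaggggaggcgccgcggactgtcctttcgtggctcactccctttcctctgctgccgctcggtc
The INSIG1 window (chr7:155297628-155297927, plus strand) held it once, at -170, with 6 matches of GGGCGG, some of them overlapping or adjoining, and CACGTG at -55.
INSIG1: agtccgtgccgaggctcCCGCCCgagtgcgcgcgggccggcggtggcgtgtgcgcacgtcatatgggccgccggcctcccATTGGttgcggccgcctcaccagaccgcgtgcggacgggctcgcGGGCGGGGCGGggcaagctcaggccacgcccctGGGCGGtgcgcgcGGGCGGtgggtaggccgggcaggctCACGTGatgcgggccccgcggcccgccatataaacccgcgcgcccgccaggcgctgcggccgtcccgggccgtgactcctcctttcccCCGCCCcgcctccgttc
The SC5D window (chr11:121292521-121292820, plus strand, the first of its 2 starts) held CCAAT at -56 and CACGTG at -131.
SC5D: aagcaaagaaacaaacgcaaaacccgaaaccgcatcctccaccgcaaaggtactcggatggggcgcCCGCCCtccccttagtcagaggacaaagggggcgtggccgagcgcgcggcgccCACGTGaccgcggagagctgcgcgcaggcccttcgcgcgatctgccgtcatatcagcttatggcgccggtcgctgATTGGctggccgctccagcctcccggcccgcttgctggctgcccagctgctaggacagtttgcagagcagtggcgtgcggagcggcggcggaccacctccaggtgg
The CYP51A1 window (chr7:92134428-92134727, minus strand) held 1 match of GGGCGG, at -61.
CYP51A1: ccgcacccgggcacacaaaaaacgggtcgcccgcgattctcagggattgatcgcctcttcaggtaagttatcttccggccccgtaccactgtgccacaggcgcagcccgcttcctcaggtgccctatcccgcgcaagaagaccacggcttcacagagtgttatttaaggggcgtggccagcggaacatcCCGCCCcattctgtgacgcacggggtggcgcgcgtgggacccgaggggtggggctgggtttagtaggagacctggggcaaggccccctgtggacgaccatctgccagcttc

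DHCR7 and IDI1 were like HMGCS1 and MSMO1 in this respect. The DHCR7 window with matches held CCAAT 2 times, at -94 and -48, and GGGCGG 4 times, while its other window held none of the motifs. Of the 3 IDI1 windows, 2 held CCAAT, 3 times and 2 times, and the third held GGGCGG 4 times. The 2 CCAAT matches of IDI1 at -132 and -129 lie on opposite strands and overlap. The genes that held CCAAT thus included members of both tables. INSIG1, with the largest fold, held 1 match, and MSMO1, with the second largest, held 4.

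**Figure D4:**
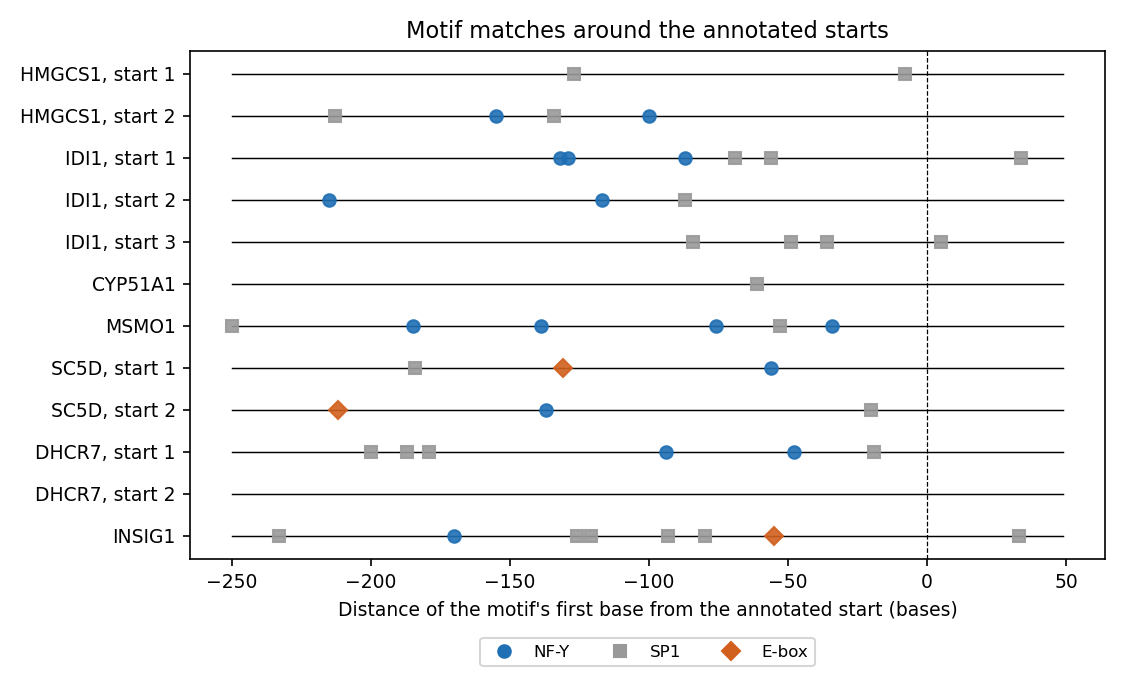
Positions of CCAAT (NF-Y, blue circles), GGGCGG (SP1, grey squares) and CACGTG (E-box, orange diamonds) in the 12 promoter windows of 7 genes, as the distance in bases of the first base of each match from the annotated start (dashed line). The NF-Y matches lie between -215 and -34, and CYP51A1, 1 HMGCS1 start, 1 IDI1 start and 1 DHCR7 start have none.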

How the data were processed

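RNA-seq libraries were made from total RNA of 12 Huh7 samples with a stranded kit that depletes ribosomal and globin RNA, per the labels. The build hg19 and the tools bcl2fastq 2.9.1, Cuffdiff, Cufflinks 2.2.1 and STAR 2.5.0b are listed, per the submitters' processing notes. Their settings, and any use of strand, were not given in the sources used here. Per the file headers, the 2 deposited tables give the authors' group FPKM, a log2 fold change, a test statistic (a score) and a p-value with its q-value, for genes marked significant. The log2 fold change equalled the ratio of the 2 deposited FPKM with no pseudocount. The table whose cells name no clone was taken as WT from the name it was deposited under. No label states that the 3 libraries per group were separate cultures, and the spread behind the deposited p-values may be technical. Depth is unknown. A value of 1 was added to starts.

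The numbers tested were recovered as the smallest for which the deposited p-values and q-values give whole ranks, a step tested on simulated data. The ranks imply 172 called genes for WT and 2114 for G398S, of which 142 and 1863 were analysed here. No new test was run. Implied standard errors are log2 fold changes divided by test statistics. For the enzymes the deposited p-values are smaller than these errors give for a normal score, so the errors are a rough scale. The members and lists were chosen with earlier results of these data known. Genes named are the members, up to 6 others of a list by size of change, A1CF, and for likeness the 2 nearest genes. An item that this rule picks is not reported here. Likeness is the Euclidean distance of both log2 fold changes, or, within the WT table, the difference in log2 fold change among genes within 2-fold of the member's FPKM. Python 3.11.15 and pandas 2.3.3 were used.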

Additional observations from a re-analysis of the deposited data

How the results depend on the processing

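At a q-value under 0.01, 4 of the 8 members counted as higher in the WT clone and 1 in the G398S clone, against 7 and 3 as reported. All of these had the smallest p that the authors deposited in each table, 5e-05, so this cut kept only members at that floor. When a minimum log2 fold change of 0.5 was asked for, the WT count stayed at 7 and that of G398S was 0, as MSMO1 fell just short. At a minimum of 1 it was 1 for WT (INSIG1) and 0 for G398S. The other synthesis genes, 1 for WT and 2 for G398S, numbered 0 in both clones at a minimum of 1 and 0 for G398S at a minimum of 0.5. A minimum of 1 FPKM changed none of these counts. The shares of all tested genes at these stricter settings were not computed. Adding 1 or 5 FPKM lowered the 10 log2 fold changes of the members by less than their implied errors, and none changed sign. Subtracting the median of each table raised all 10, by 0.66 for WT and 0.32 for G398S. That median covers called genes alone, so it is no scaling factor for the libraries. No paired analysis was possible because the tables hold 1 pooled value per group, and for the same reason no library could be left out.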
